A study of Mus musculus with 8 samples.

Results

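The coreceptor genes Cd4, Cd8a and Cd8b1 and the lineage factor genes Zbtb7b and Runx3 were followed on 8 Affymetrix MOE430A_2.0 arrays of mouse splenic T cells. Every probe set that the platform annotation pairs with 1 of these 5 symbols and no other was taken, which gave 8 of the 22690 probe sets and 5 of the 12394 genes with a probe set of their own: 2 each for Cd4, Cd8a and Zbtb7b and 1 each for Cd8b1 and Runx3. The knockout-labelled (KO-labelled) arrays hold T cells of Gfi1-knockout C57Bl/6 mice at 0 h without treatment and after 4, 8 and 24 h in culture with anti-CD3 plus anti-CD28 antibodies at 2 µg per ml. The wild-type-labelled (WT-labelled) arrays hold T cells of wildtype C57Bl/6 mice at the same 4 times. All cells were taken from spleen with a pan-T cell kit, and each genotype and time had 1 array. The titles carry 1 source number per genotype, and the age and number of the mice and the deleted part of Gfi1 are not given in the sources used here.

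A T cell leaves the thymus as a helper cell that carries CD4 or as a cytotoxic cell that carries CD8. CD4 binds class II molecules of the major histocompatibility complex (MHC) and CD8, a dimer of an alpha chain from Cd8a and a beta chain from Cd8b1, binds class I molecules. Both bring the kinase Lck to the T cell receptor. Zbtb7b encodes ThPOK, the zinc finger factor that commits thymocytes to the CD4 fate and represses CD8 lineage genes, while Runx3 silences Cd4 and Zbtb7b in the CD8 lineage and acts on Cd8a. Gfi1 is a zinc finger repressor of lymphoid and myeloid cells. In mice CD4 and CD8 alpha are also carried by dendritic cell subsets, and Runx3 is also used by natural killer cells.

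Windows from 250 bases before to 50 after a transcription start are shown for Cd8a, whose probe sets gave the most negative genotype differences of the 5 genes at 0 and 4 h, and for the windows of the lineage factors that hold the Runx core motif. The sequences are those of RefSeq on GRCm38.p6, in which Cd8b1 and Cd8a are neighbours on chromosome 6 with 0 annotated genes between them, and Cd4 lies on chromosome 6 too. Capitals mark TGTGGT, the core of the motif bound by Runx proteins, searched on both strands, so that ACCACA is the same motif on the other strand.
Cd8a, chr6:71373177-71373476, plus strand: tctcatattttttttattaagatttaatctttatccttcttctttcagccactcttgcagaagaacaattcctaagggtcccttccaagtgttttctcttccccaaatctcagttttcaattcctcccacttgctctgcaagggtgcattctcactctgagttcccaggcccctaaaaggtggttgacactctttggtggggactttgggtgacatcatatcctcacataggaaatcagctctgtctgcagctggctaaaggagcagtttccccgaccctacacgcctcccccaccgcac
Runx3, chr4:135120395-135120694, plus strand: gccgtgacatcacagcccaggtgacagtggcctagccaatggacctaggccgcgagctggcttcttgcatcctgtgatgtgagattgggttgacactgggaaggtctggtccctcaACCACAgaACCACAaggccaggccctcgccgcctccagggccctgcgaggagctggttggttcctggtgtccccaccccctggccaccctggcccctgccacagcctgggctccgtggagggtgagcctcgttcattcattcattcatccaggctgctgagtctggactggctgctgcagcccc
Zbtb7b, chr3:89387622-89387921, minus strand: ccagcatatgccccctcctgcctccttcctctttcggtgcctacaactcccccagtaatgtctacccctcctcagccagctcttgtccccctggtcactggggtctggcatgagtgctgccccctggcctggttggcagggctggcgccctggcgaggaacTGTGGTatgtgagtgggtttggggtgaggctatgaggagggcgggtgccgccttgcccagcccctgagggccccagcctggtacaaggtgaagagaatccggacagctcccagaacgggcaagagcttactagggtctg
The Runx3 window held the motif starting 134 and 126 bases before the start and the Zbtb7b window 89 bases before it. A second listed window of each of these genes and the Cd8a window held none. Of 32851 such windows of all genes 16.8% held at least 1 match, and a match is a description of these letters only.

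The values are signals, a linear intensity in arbitrary units. The median signal per array was 260 to 305 in the KO-labelled and 224 to 301 in the WT-labelled arrays. Signals under a floor of 141.88 were set to it before log2 was taken, and 56.6% to 61.6% of probe sets per array lay above it. All 8 member probe sets were above the floor on at least 2 arrays and entered the fit over 15062 probe sets. With 1 array per genotype and time no replicate checks a genotype difference, which is therefore read by its size, at least 2-fold, with no p-value. The changes from 0 h at the 3 later times share the 0 h array of their genotype. Gfi1 itself gave 2316, 5979, 6459 and 9885 at 0, 4, 8 and 24 h in the KO-labelled arrays against 882, 6359, 5259 and 3966 in the WT-labelled ones. Its probe set therefore does not check the labels. The T cell receptor chain gene Cd3d gave 7145, 6369, 4774 and 12672 against 22780, 21068, 14902 and 14783, so T cell RNA was present on every array.

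All 5 coreceptor probe sets were at least 2-fold lower in the KO-labelled array at 0 h and at 4 h, 4 of 5 at 8 h and 0 of 5 at 24 h. Of all tested probe sets 7.00%, 6.79%, 6.77% and 4.87% were that much lower at 0, 4, 8 and 24 h. Of the 3 factor probe sets 0 were at least 2-fold lower at any time and 1 was at least 2-fold higher at 4 h, where 10.3% of all tested probe sets were (7.48%, 10.4% and 8.36% at 0, 8 and 24 h). At 0, 4 and 8 h alike 4 members were at least 2-fold lower, against 1.33% of all tested probe sets, and 0 were at all 4 times, against 0.153% (1.59% were at least 2-fold higher at all 4). The median difference of the coreceptor probe sets was -2.03, -2.05, -1.61 and -0.17 on the log2 scale at 0, 4, 8 and 24 h, against 0.00, -0.02, -0.07 and 0.00 for all tested probe sets.

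Cd8a, the alpha chain of CD8, gave signals of 1715, 1238, 1701 and 6781 in its brighter probe set (1451673_at) at 0, 4, 8 and 24 h in the KO-labelled arrays, against 8172, 6199, 5182 and 7650 in the WT-labelled ones. The second probe set (1425335_at) gave 866, 600, 1047 and 3392 against 4372, 3230, 3432 and 3814. In both probe sets the 3 KO-labelled arrays before 24 h were lowest of the 8 and the KO-labelled 24 h array lay among the WT-labelled ones. The log2 differences were -2.25, -2.33, -1.61 and -0.17 in the first and -2.34, -2.43, -1.71 and -0.17 in the second. The probe sets differed from each other by at most 0.105 in this measure. The remaining difference at 24 h was -0.11 and -0.07 with quantile normalization and -0.45 in both with median scaling, in which every array is divided by its own median. That scaling put the median difference of all tested probe sets at -0.15, -0.155 and -0.19 at 4, 8 and 24 h.

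Ordered by level, the Cd8a signals formed a high set of 5 arrays and a low set of 3, separated by a gap of 1.60 and 1.62 in log2 signal in the 2 probe sets. Every other pair of neighbours in that order was closer than the residual SD of the fit (0.50 and 0.53). This is the SD after moderation in limma, which draws on the spread of all tested probe sets as well. It is what time and genotype together did not account for, and so holds the difference between the responses of the 2 genotypes. No array has a replicate, so this SD is the one measure of spread at hand, and orders of arrays read by it are descriptions only.

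Cd8b1, the beta chain that with the alpha chain makes the CD8 of conventional cytotoxic cells, gave 2676, 1414, 1322 and 4571 in the KO-labelled arrays at 0, 4, 8 and 24 h, against 10916, 4947, 4392 and 4493 in the WT-labelled ones. Its differences were -2.03, -1.81, -1.73 and 0.03, the last of them -0.25 after median scaling. The WT-labelled 0 h array stood alone at the top, 1.14 above the next. Below it the KO-labelled 24 h array and the WT-labelled 4, 8 and 24 h arrays differed from one to the next by less than the residual SD of 0.48. The KO-labelled 0 h array came next, and the KO-labelled 4 and 8 h arrays were lowest and within that SD of each other.

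Cd4 gave 636.5, 239, 340 and 860 in its brighter probe set (1419696_at) at 0, 4, 8 and 24 h in the KO-labelled arrays, against 2195, 989, 728 and 1432 in the WT-labelled ones. The KO-labelled array was lower at each time, with log2 differences of -1.79, -2.05, -1.10 and -0.74. After median scaling the 24 h value was -1.01, and this probe set was then at least 2-fold lower at all 4 times. In the order of its levels the WT-labelled 4 and 8 h arrays and the KO-labelled 24 and 0 h arrays differed from neighbour to neighbour by less than the residual SD of 0.40. The second probe set (1427779_a_at) gave 386, 152, 174 and 599 against 1320, 487, 85.5 and 593. Both lie low at 4 and 8 h, and the WT-labelled 8 h signal of the second probe set is under the floor.

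The Cd4 probe sets gave nearly the same difference at 0 h, -1.79 and -1.77, and differed by 1.39 from each other at 8 h, where the second had 0.29. That value is a lower bound, since the WT-labelled signal was set to the floor. At 24 h the second probe set had 0.01, or -0.07 and -0.26 under the 2 other scalings. A floor at the 60th percentile took the 4 h difference to -1.05 in the first probe set and -0.03 in the second, so that the second was no longer 2-fold lower there.

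**Figure D1:**
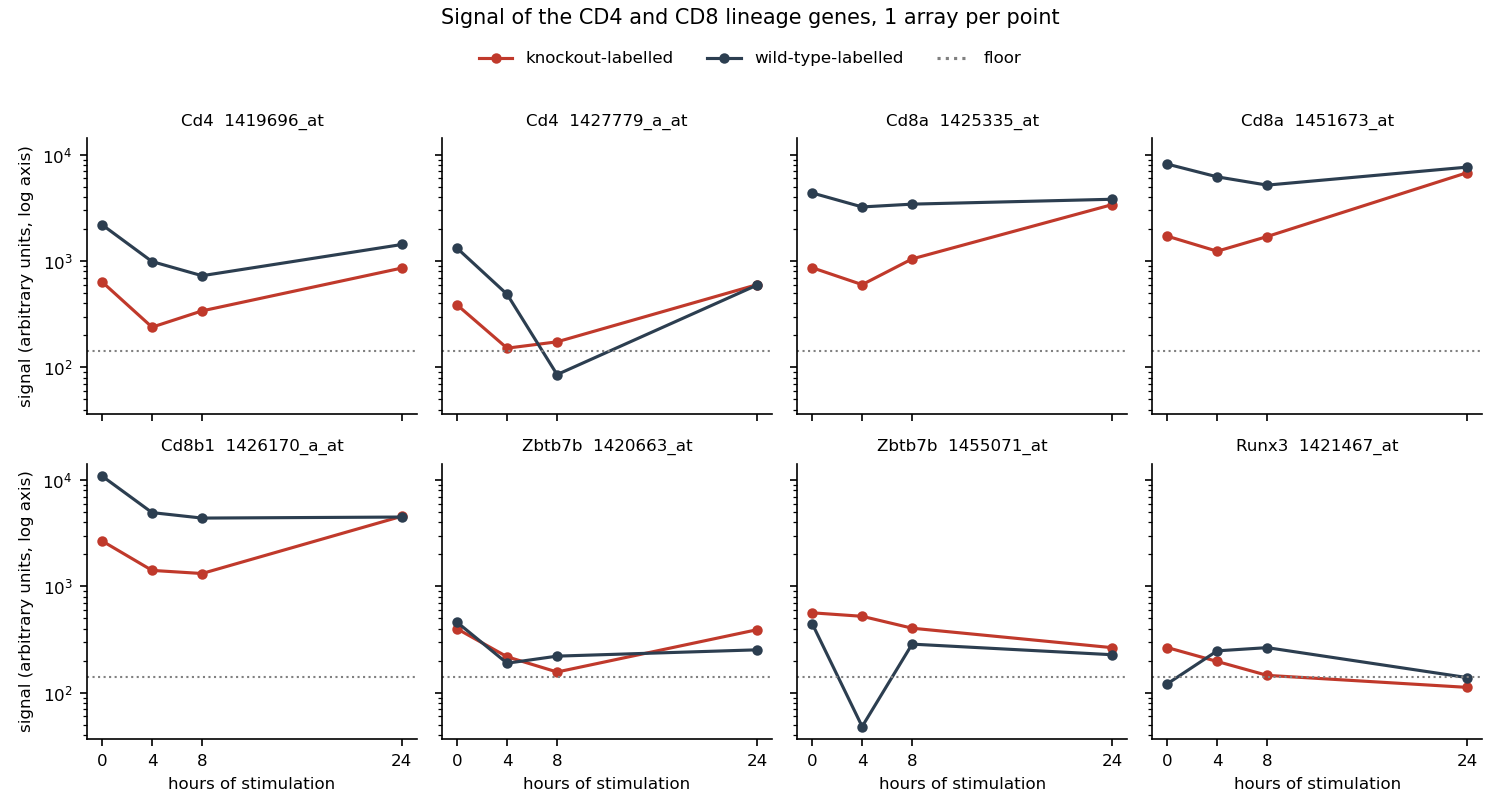
Signal (arbitrary units, log axis) of each of the 8 probe sets against hours of stimulation; red points are KO-labelled and dark points WT-labelled arrays, 1 array per point, and the dotted line is the floor of 141.88. The Cd8a curves meet at 24 h after lying apart at 0, 4 and 8 h, and the Zbtb7b and Runx3 signals stay under 600 on all 8 arrays.

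Genes of T cell identity were lower in the same arrays, and the coreceptors were set against them. Of 20 listed genes 16 were tested, and 14, 15, 14 and 1 of these were at least 2-fold lower at 0, 4, 8 and 24 h, with 0, 0, 0 and 2 higher. Trat1, an adaptor of the receptor complex, was the 1 gene lower by that much at all 4 times. The receptor chain gene Cd3e differed by -0.64, -1.40, -1.97 and 0.12. The median difference of the 16 was -1.68, -1.70, -1.53 and -0.29, or -0.27 and -0.56 at 24 h under the 2 other scalings. In bulk RNA fewer cells of a type and less RNA per cell cannot be told apart. Relative to this list median 0 of the 8 member probe sets were at least 2-fold lower at any time, on the scale as deposited and under the scaling and floor alternatives. The share of all tested probe sets that passed this cut was not computed. Only 0.159% and 0.199% of them lay below Cd8a 1425335_at at 0 and 4 h, and that probe set did not reach the cut. A count of 0 at these times thus does not set the members apart from other probe sets. The factor probe sets stood above the list median. At 0 and 4 h the Zbtb7b probe sets had 1.48 and 1.90, and 2.02 and 3.58, and Runx3 had 2.59 and 1.365. Of these, 3.58 and 2.59 rest on a WT-labelled signal at the floor.

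Relative to the list median, which is the same for every probe set at a time and so leaves their order as it was, Cd8a stood at -0.57 and -0.63 in its brighter and -0.65 and -0.73 in its second probe set at 0 and 4 h. At 8 h these were -0.08 and -0.18, and at 24 h 0.11 and 0.12. Cd8b1 stood at -0.34, -0.11, -0.20 and 0.31 relative to the list at 0, 4, 8 and 24 h. The brighter Cd4 probe set stood at -0.10, -0.35, 0.43 and -0.45 relative to the list and the second at -0.09, 0.01, 1.82 and 0.30, of which the 1.82 rests on a signal at the floor.

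Most markers of granulocyte precursors were higher in the KO-labelled arrays, and so were many of monocytes and macrophages. Summed over 13 granulocyte precursor genes, the signal was 6688 to 177056 in the KO-labelled and 1006 to 16918 in the WT-labelled arrays, with 10, 10, 10 and 9 of the 13 at least 2-fold higher at 0, 4, 8 and 24 h. The other 3, the granule protein genes Ngp, Camp and Ltf, were lower at the first pair of times, with differences of -0.54, -0.56 and -0.60 at 0 h, then -0.81, -0.82 and -0.21 at 4 h. The monocyte and macrophage markers summed to 16515 to 56083 against 1468 to 9841, with 6, 9, 10 and 10 of 14 at least 2-fold higher. Mpo, the granule peroxidase of granulocyte precursors, gave 33134, 41520, 28936 and 614 against 3142, 2264, 585 and 119 at 0, 4, 8 and 24 h. Ctsg, a granule protease of the same cells, gave 22212, 28004, 17933 and 1606 against 1104, 802, 305.5 and 156. In both genotypes the granulocyte sum was lowest at 24 h, the time at which the coreceptor differences were smallest. The part of these cells' RNA in the coreceptor differences was not tested.

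Dendritic and natural killer cells can carry members as well. The 11 dendritic cell markers on the array summed to 13674 to 18444 in the KO-labelled and 10307 to 19189 in the WT-labelled arrays. These sums mainly follow Cst3 and Irf8, which moved in opposite directions from 0 to 4 h. In the WT-labelled arrays Cst3 went from 6790 to 3257 and Irf8 from 1161 to 11707. The sums are thus no measure of the share of dendritic cells. The 2 genes gave 10393 and 4729 of the KO-labelled 16726 at 0 h, and 4058 and 10409 of the WT-labelled 19189 at 8 h. The integrin Itgax gave 395, 78.2, 59.5 and 153 against 395, 161, 158 and 22.9. Its KO-labelled 4 and 8 h and WT-labelled 24 h signals were under the floor. Of those 11 markers 4, 4, 4 and 3 were at the floor in the KO-labelled arrays at 0, 4, 8 and 24 h, against 1, 3, 3 and 4 in the WT-labelled ones. Of the 6 natural killer cell genes on the array, the defining receptor Ncr1 and Klra8 were at the floor on all 8 arrays. Klra7 gave 15.7, 37.4, 31.5 and 1.2 in the KO-labelled arrays at 0, 4, 8 and 24 h against 343, 182, 213 and 105. Only its WT-labelled 0, 4 and 8 h signals lay above the floor. The list summed to 1877 to 3810 against 2887 to 4169, and Il2rb and Gzma gave 1334 and 812 of the KO-labelled 2376 at 0 h. The median difference of B cell markers (7 tested) was -0.53, -1.10, -0.65 and 0.00 at 0, 4, 8 and 24 h. At 24 h 7 and 6 of the 9 on the array were at the floor in the KO-labelled and WT-labelled array, so the 0.00 gives no difference. Ms4a1 was the 1 B cell gene at least 2-fold lower at all 4 times, by -2.18, -2.19, -2.60 and -1.49. For red cell markers (5 tested) the median difference was 0.53, -0.06, -0.02 and -0.56. Their sum fell between 0 and 4 h, from 27828 to 1661 in the KO-labelled and from 23061 to 2334 in the WT-labelled arrays. The part of these cells in the results was not tested.

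**Figure D2:**
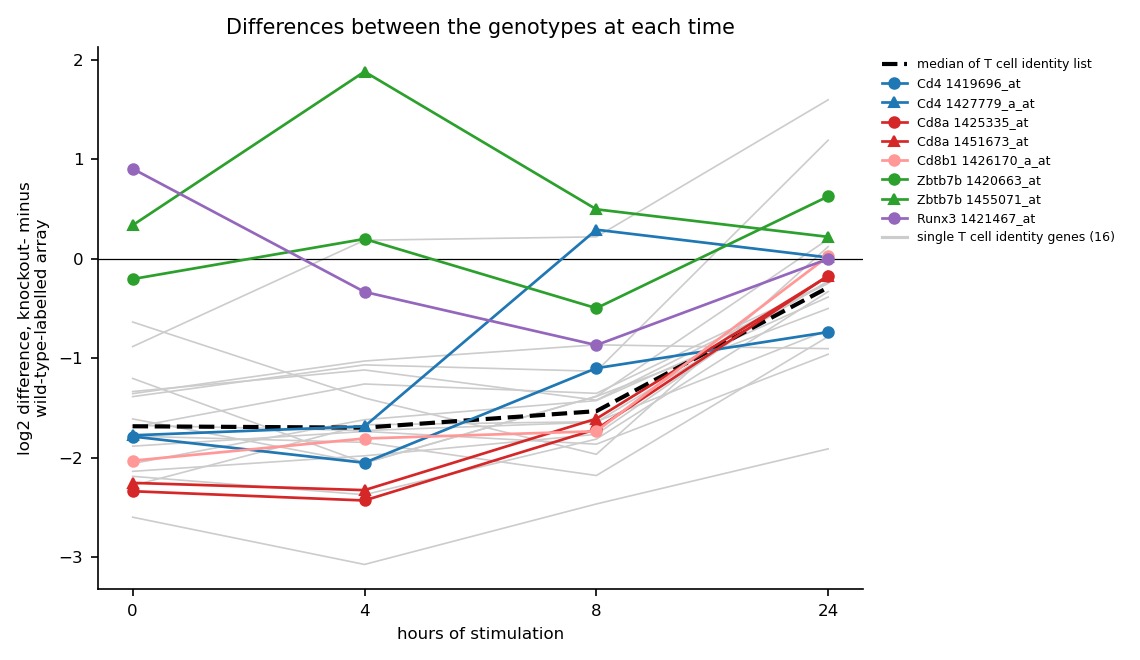
Log2 difference between the KO-labelled and the WT-labelled array (y axis) at 0, 4, 8 and 24 h (x axis, evenly spaced) for the 8 probe sets in colour, the 16 T cell identity genes in grey and their median as a dashed line. The Cd8a, Cd8b1 and brighter Cd4 lines run beside the dashed median, which stands at -1.68 at 0 h and -0.29 at 24 h, and the Zbtb7b lines run above it at all 4 times, as the Runx3 line does at 0, 4 and 8 h; the Runx3 point at 24 h is a floor against a floor and gives no difference.

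The lineage factors were dim and showed no common direction. Zbtb7b gave 399, 218, 156.5 and 391 in one probe set (1420663_at) at 0, 4, 8 and 24 h in the KO-labelled arrays, against 459, 189, 221 and 253 in the WT-labelled ones. The differences were -0.20, 0.20, -0.50 and 0.63, and the groups overlap throughout. The second probe set (1455071_at) gave 564, 523, 404 and 265 against 446, 48.0, 286 and 228, with differences of 0.34, 1.88, 0.50 and 0.22. The value at 4 h is a lower bound, because 1 WT-labelled signal lies under the floor, and it was 3.45 with a floor at the 20th percentile and 0.13 with one at the 60th. The difference at 24 h was -0.06 under both other scalings. The 2 Zbtb7b probe sets disagreed by 1.68 at 4 h and by 0.99 at 8 h, where their signs were opposite.

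Runx3 gave 266, 197, 145.5 and 112 at 0, 4, 8 and 24 h in the KO-labelled arrays, against 121, 248, 265 and 139 in the WT-labelled ones. The KO-labelled array was thus the higher one at 0 h, by at least 0.91 since the WT-labelled signal was under the floor, and the lower one at 4 and 8 h, with differences of -0.33 and -0.87. At 24 h both signals were under the floor and no difference is given. Only 5 of 8 arrays were above the floor. In the order of the Runx3 levels, only the step between the KO-labelled 4 h and 8 h arrays exceeded the residual SD of 0.40. All other neighbours in that order lay closer together.

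The change from 0 h common to both genotypes was tested in limma, and 0 of the 8 member probe sets passed at 4, 8 or 24 h. At an unadjusted p under 0.05 there were 3, 4 and 0 of the 8. Of all tested probe sets 0.631%, 0.956% and 1.24% rose and 0.465%, 0.989% and 2.20% fell at 4, 8 and 24 h, and 13.6%, 19.8% and 21.3% had an unadjusted p under 0.05. These p-values measure the spread between the responses of the 2 samples and not between animals, and time in culture cannot be told apart from the antibodies, since no array holds cells cultured without them. The brighter Cd4 probe set had a log2 change of -1.28 at 4 h (SE 0.40, limma adjusted p = 0.228) and -1.25 at 8 h (SE 0.40, limma adjusted p = 0.155), with lower signals than at 0 h in both genotypes at both times. The second Cd4 probe set had -1.39 and -2.18 (SE 0.59, limma adjusted p = 0.368 and 0.115).

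Zbtb7b had -1.07 at 4 h and -1.20 at 8 h in its first probe set (SE 0.34, limma adjusted p = 0.236 and 0.127) and -0.88 and -0.56 in its second (SE 0.46). Cd8b1 had -1.03 and -1.165 at 4 and 8 h (SE 0.48, limma adjusted p = 0.417 and 0.248). Left without either 24 h array, Cd8b1 at 8 h passed with the same change of -1.165 (SE 0.18, limma adjusted p = 0.036). The Cd8a probe sets had -0.43 and -0.48 at 4 h and 0.94 and 0.89 at 24 h (SE 0.50 and 0.53, limma adjusted p = 0.335 and 0.386 at 24 h). Without the WT-labelled 24 h array both Cd8a probe sets passed at 24 h, with changes of 1.89 and 1.88 (limma adjusted p = 0.032 and 0.036), which then rest on the KO-labelled 24 h array alone. Runx3 had 0.18, 0.02 and -0.45 at 4, 8 and 24 h (SE 0.40).

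Taken by genotype, the changes of all 5 coreceptor probe sets from 0 to 24 h had opposite signs, positive in the KO-labelled and negative in the WT-labelled arrays, on the scale as deposited. Opposite signs were seen for 36.6% of all tested probe sets over the same interval, and for 30.0% at 4 h and 28.2% at 8 h, where 1 and 2 of the 8 members had them. Cd8a was 3.95-fold and 3.92-fold its 0 h signal in the KO-labelled and 0.94-fold and 0.87-fold in the WT-labelled 24 h array. After median scaling the WT-labelled changes of the Cd8a probe sets were 0.33 and 0.23 on the log2 scale, so that the signs no longer differed, while the KO-labelled ones were 2.15 and 2.14. Cd8b1 was 1.71-fold against 0.41-fold its 0 h signal, the brighter Cd4 probe set 1.35-fold against 0.65-fold and the second 1.55-fold against 0.45-fold, and these kept opposite signs under both other scalings.

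The difference between the changes, KO-labelled minus WT-labelled, was 2.08 and 2.17 for Cd8a, 2.05 for Cd8b1 and 1.05 and 1.79 for Cd4 at 24 h. At least a 4-fold difference was reached by 3 of the 8 probe sets, against 3.32% of all tested probe sets in that direction and 2.41% in the other, and by 0 of 8 after median scaling. At 8 h it was reached by the second Cd4 probe set alone, at 2.07, through a WT-labelled signal at the floor, against 1.65% of all (0.677% in the other direction). At 4 h 0 members reached it, against 0.797% of all (0.345% in the other direction). The T cell identity list moved in the same sense: its median change from 0 to 24 h was 0.73 in the KO-labelled and -0.61 in the WT-labelled arrays (0.89 and -0.18 after median scaling), and the granulocyte precursor list had -3.79 and -2.80. Their part in the coreceptor changes was not tested.

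**Figure D3:**
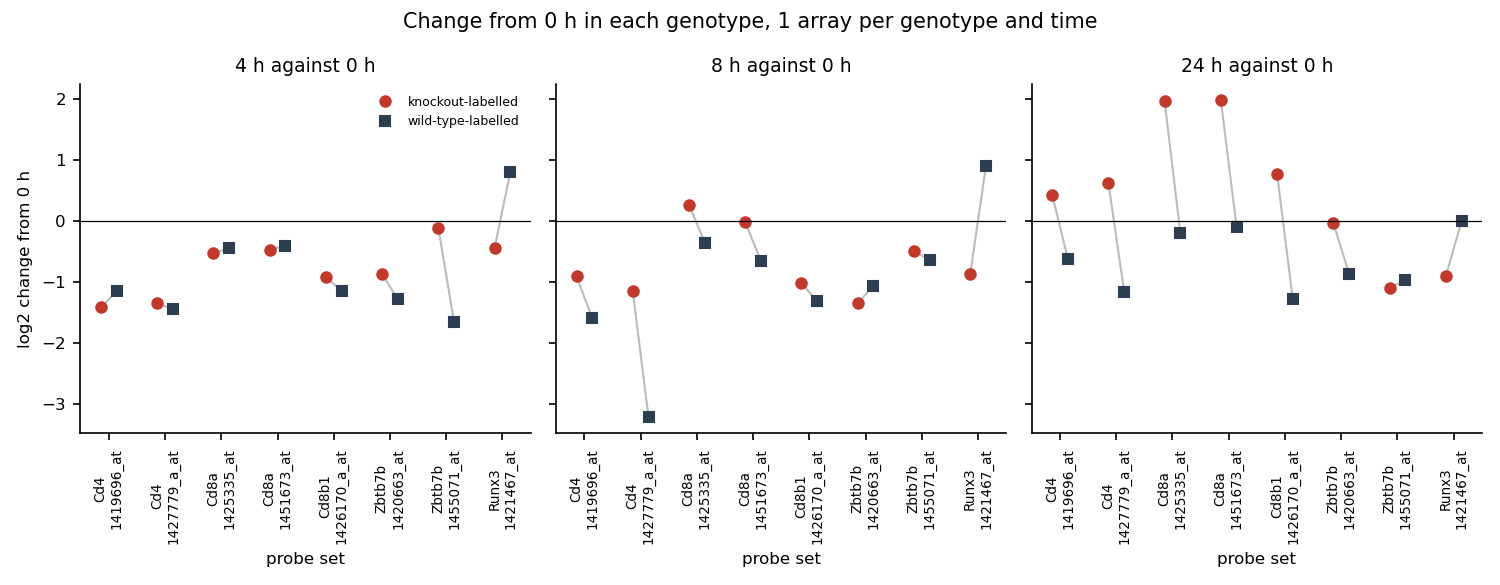
Log2 change from 0 h (y axis) at 4, 8 and 24 h (panels) for each of the 8 probe sets (x axis); red circles are KO-labelled and dark squares WT-labelled arrays, joined per probe set. At 24 h the 5 coreceptor probe sets lie above 0 in the KO-labelled and below 0 in the WT-labelled array, by 1.97 and -0.20 for Cd8a 1425335_at, while at 4 h both lie below 0; after median scaling the WT-labelled Cd8a points at 24 h would lie above 0, at 0.33 and 0.23.

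Other factors of the CD4 or CD8 choice were followed as a list of 21 genes, 19 of them tested. Of these 6, 7, 5 and 1 lay at least 2-fold lower in the KO-labelled array at 0, 4, 8 and 24 h and 0, 1, 0 and 0 at least 2-fold higher, with median differences of -0.33, -0.28, -0.48 and -0.30. The shares of all tested probe sets, for this list and those below, were 7.00%, 6.79%, 6.77% and 4.87% lower and 7.48%, 10.3%, 10.4% and 8.36% higher. By the limma rule 0.631%, 0.956% and 1.24% of all rose and 0.465%, 0.989% and 2.20% fell at 4, 8 and 24 h. In limma 1 of 19 rose at 4, 8 and 24 h, the cytokine signalling inhibitor Socs1, with log2 changes of 3.53, 3.15 and 2.79 (SE 0.33, limma adjusted p = 0.0134, 0.0127 and 0.0133). One fell at 24 h, the progenitor factor Myb (-2.115, SE 0.37, limma adjusted p = 0.0359). Tox and Cbfb were chosen after their values were seen. Tox, needed for CD4 cell development, gave 435, 449, 376 and 171.5 in the KO-labelled arrays at 0, 4, 8 and 24 h against 1461, 1551, 673 and 391. The HMG box factor Lef1 differed by -2.28, -2.06, -2.345 and -0.82. Cbfb, the shared partner of the Runx factors, differed by 0.13, -0.14, -0.32 and -0.30.

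Ligands and signalling partners of the coreceptors numbered 10 tested genes, of which 4, 5, 2 and 1 lay at least 2-fold lower in the KO-labelled array at 0, 4, 8 and 24 h and 0, 0, 0 and 1 higher. Their median difference was -0.86, -0.97, -0.76 and 0.08, the last -0.20 after median scaling. In limma 0 of 10 rose and 0 fell at each of the 3 times. An unadjusted p under 0.05 was seen for 3, 2 and 4 of them at 4, 8 and 24 h, against 13.6%, 19.8% and 21.3% of all tested probe sets. The 5 MHC genes that follow were chosen after their values were seen. The class II genes H2-Aa, H2-Ab1 and H2-Eb1, whose products CD4 binds, differed by -1.37, -1.07 and -1.48 at 0 h, while 24 h gave 0.05, 0.11 and -0.10. The class I genes H2-K1 and H2-D1, whose products CD8 binds, had -0.91 and -0.52 at 0 h and 0.74 and 0.82 at 24 h.

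Effector genes linked to each lineage were followed as lists too. Of 15 tested genes of the CD8 effector list, 4, 4, 5 and 1 lay at least 2-fold lower in the KO-labelled array at 0, 4, 8 and 24 h and 1, 1, 4 and 8 were at least 2-fold higher, with a median of 1.22 at 24 h (0.85 and 0.94 under the 2 other scalings). In limma 1, 3 and 2 of them rose at 4, 8 and 24 h: the cytokine Ifng at all 3 times, the granule protease Gzmb at 8 and 24 h and the adhesion receptor Crtam at 8 h. Gzmb gave 1194, 1487, 16876 and 54298 in the KO-labelled arrays against 426, 1121, 5075 and 23389, a change from 0 to 24 h of 5.64 (SE 0.33, limma adjusted p = 0.00381). Of 13 tested genes of the CD4 helper list, 3, 7, 2 and 2 were at least 2-fold lower and 1, 1, 1 and 4 higher, with median differences of -0.69, -1.10, -0.59 and 0.19 (the last -0.03 after median scaling), and 4 rose at each time in limma: Il2, Il17a, Tnfrsf4 and Tnfsf8. Tnfrsf4, the costimulatory receptor OX40, changed by 3.72 from 0 to 24 h (SE 0.30, limma adjusted p = 0.00895). The cytokine gene Il17a was at least 2-fold higher in the KO-labelled array at all 4 times, with 374, 16998, 14264 and 14177 against 119, 1627, 941 and 627. The cytokine gene Il4 of the same list, chosen after its values were seen, went the other way. It gave 28.9, 190, 126 and 422 against 254, 8656, 5019 and 1884, with differences of -0.84, -5.51, -5.145 and -2.16. Its KO-labelled 0 and 8 h signals were under the floor. Izumo1r, the folate receptor 4 of regulatory T cells, chosen after its values were seen, was at least 2-fold lower in the KO-labelled array at all 4 times, with 803, 637.5, 408 and 845 against 2712, 1863, 1199 and 2233.

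Among 8456 other tested genes, those whose log2 signal over the 8 arrays was most like Cd4 were Med30, Ptprcap, Adgrl1, Lat and Lef1 (Pearson r 0.98 to 0.96), with Cd8b1 at rank 9 and Cd8a at rank 38. The 5 most like Cd8a were Parg, 1700030K09Rik, Ccdc71, the costimulatory receptor Cd28 and the T cell receptor segment Trbv1 (r 0.98 to 0.97), and those most like Cd8b1 were the GTPase Gimap7, Zfp51, Lef1, Grcc10 and Rcan3 (r 0.99 to 0.96). The 8 points share genotype, time and scaling, so these are descriptions of likeness and carry no p. Gimap7 had differences of -2.53, -2.475, -2.345 and 0.52 at 0, 4, 8 and 24 h, beside -2.03, -1.81, -1.73 and 0.03 for Cd8b1. The patterns of the dim factors were most like Ccdc90b, Cbfa2t3, Igfbp4, Fam222b and Cmc2 for Zbtb7b and Suv39h2, Dyrk1a, Zc3h18, Atp11a and Atg2a for Runx3. Zbtb7b and Runx3 had negative r with each of the 3 coreceptors, from -0.67 for Zbtb7b with Cd8a to -0.12 for Runx3 with Cd8b1. Zbtb7b stands here by 1455071_at alone, whose WT-labelled 4 h signal was set to the floor. The other Zbtb7b probe set, 1420663_at, disagreed with it by 1.68 in the genotype difference at 4 h, and its r was not computed. The sign for Zbtb7b thus rests on 1 probe set, and Runx3 was above the floor on only 5 of 8 arrays.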

How the data were processed

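The authors deposited 1 table of signal intensity for 8 arrays, made with GCOS 1.4 and MAS5 per the submitters' processing notes; no label says which step each carried out. All 8 columns were used (0 unused), and 64 of the 22690 probe sets are controls. The intensities were used as deposited, values under the median over arrays of the 40th percentile (141.88, log2 7.15) were set to it, and log2 was taken. Probe sets above it on at least 2 arrays were tested, and 1 probe set per gene, that with the highest mean, stands for a listed gene. For stimulation, limma 3.58.1 (R 4.3.3) fitted time plus genotype with a variance trend, calling Benjamini-Hochberg adjusted p under 0.05 and at least 2-fold (3 residual and a median of 3.88 prior degrees of freedom), and the fit was tested on simulated data. Precision is limited by 1 array per group. Genotype differences were read by size. The members and lists were chosen with earlier results of these data known. Named genes are the members, the 5 most similar genes per member, and up to 4 genes per list that passed in limma or differed at least 2-fold at all 4 times, and Cd3d, Cd3e, Ctsg and Mpo. Outside this rule Tox, Cbfb, Izumo1r, Il4, 5 MHC genes, Irf8, Ncr1, Klra8, Klra7, Il2rb, Gzma, Ngp, Camp and Ltf are named, chosen after their values were seen. The lists of other cell types are given mainly by counts and sums. Alternatives were 2 scalings, 2 floors, log2 of the signal plus the floor, no filter, no variance trend, no genotype term, a 1.5-fold threshold and leaving out arrays. Figures were drawn with matplotlib 3.10.9.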

Additional observations from a re-analysis of the deposited data

Results flagged for a closer look

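In 8 cases a member probe set had changes from 0 h of opposite sign in the 2 genotypes, with 1 array each, so the differences were not tested. From 0 to 24 h the change in the KO-labelled minus that in the WT-labelled arrays was 1.05 and 1.79 for the Cd4 probe sets, 2.17 and 2.08 for those of Cd8a and 2.05 for Cd8b1, positive in the KO-labelled and negative in the WT-labelled arrays. After median scaling the WT-labelled changes of Cd8a were positive too. Cd8a 1425335_at differed by 0.62 at 8 h, with changes of 0.27 and -0.35, both under its residual SD of 0.53. Runx3 went the other way, with -1.24 at 4 h and -1.77 at 8 h. Neither is an exact value, since both use a WT-labelled 0 h signal that was under the floor and was set to it. Its changes at 8 h were -0.87 in the KO-labelled and 0.90 in the WT-labelled array. Opposite signs were seen for 30.0%, 28.2% and 36.6% of all tested probe sets at 4, 8 and 24 h.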

How the results depend on the processing

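The 5 and 5 coreceptor probe sets at least 2-fold lower at 0 and 4 h and the 4 at 8 h stayed within 1.5 times those counts under both other scalings, both other floors, log2 of the signal plus the floor and a 1.5-fold threshold. At 24 h 1 was lower after median scaling and 1 at 1.5-fold, against 0. The count lower at all times was 1 under each of these and 4 without the 24 h pair, against 0. Probe sets at least 2-fold higher numbered 1 at 0 h and 1 at 8 h with a floor at the 20th percentile, 1 at 0 h and 1 at 24 h at 1.5-fold, against 0, and 0 at 4 h with a floor at the 60th percentile, against 1. A 4-fold difference between the changes was reached by 1 at 4 h and 2 at 8 h with the lower floor, by 0 at 8 h with the higher floor and with log2 of the signal plus the floor, and at 24 h by 1 with the latter setting and 0 after median scaling. The number of members passing in limma was 0 at each time in every fit with all arrays, also without the genotype term (no replicate block), and 0 to 0, 0 to 1 and 0 to 2 at 4, 8 and 24 h with 1 array left out. The cause was not tested.

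Some alternatives cannot move a log2 change, and its direction is then kept by construction. These are no filter, no variance trend, no genotype term and leaving out an array of another later time. Changes from 0 h of the members kept their direction in 356 of 378 comparisons with an alternative, a count that includes these fixed outcomes. The other 22 were reversed, and 0 member changes had passed on the scale as deposited. After median scaling the 24 h changes of Cd4 were 0.205 and 0.036, that of Cd8b1 0.042 and the 8 h change of Cd8a 1425335_at 0.218, and with quantile normalization Cd4 1419696_at had 0.048 at 24 h and Cd8a 1425335_at 0.004 at 8 h. The other 16 came with 1 array left out. The ranges over the arrays left out were, at 24 h, -0.546 to 0.363 and -0.917 to 0.397 for the Cd4 probe sets, -1.194 to 0.686 for Cd8b1, -0.109 to 1.881 for Cd8a 1425335_at and -1.105 to 0.2 for Runx3. At 4 h they were -0.994 to 0.028 and -0.925 to 0.055 for the Cd8a probe sets and -0.469 to 0.836 for Runx3. At 8 h the Cd8a probe sets spanned -0.487 to 0.412 and -0.777 to 0.107, and Runx3 -0.636 to 0.669. Signals of Zbtb7b, Runx3 and the second Cd4 probe set near the floor limit what these can show.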
